A study of Rattus norvegicus with 9 samples.

Results

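The genes that copy the DNA of a dividing cell were followed in whole bone of the skull (calvaria) and of the limb (ulna). A set of 45 DNA replication and S-phase genes was chosen by name for their textbook roles, with earlier results of these data known. Of these, 42 were measured among the 14217 genes tested. Cdc6, Gins2 and Rrm2 were not analysed here. The samples were whole bones of untreated male CD rats of about 110 g, with 4 skull arrays and 5 limb arrays, each hybridised with total RNA that, per the methods of the study, was pooled from several rats after attendant soft tissue and sutures or epiphyses had been cleared away. For these whole bones the methods do not state that marrow was flushed out. One further label field names the calvaria for ulna 1 to 4, against their titles. Hoxa9, a trunk and limb gene, had signals of 60.4 to 79.0 on the 5 limb arrays and 1.82 to 4.80 on the 4 skull arrays. The bone matrix genes Col1a1 and Bglap were bright at both sites, with mean signals of 8006 and 7555 in the skull and 7098 and 6643 in the limb.

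Before S phase, the origin recognition complex (Orc proteins), Cdc6 and Cdt1 load the ring-shaped helicase Mcm2-7 onto DNA, a step known as licensing. Cyclin E and its kinase, with E2F transcription factors, then drive entry into S phase, and Cdc45 and the GINS complex switch the helicase on. DNA polymerases copy the strands, held by the sliding clamp Pcna, while thymidylate synthase, ribonucleotide reductase and related enzymes supply the nucleotides. In whole bone, dividing cells include marrow precursors of red and white cells and progenitors of osteoblasts and cartilage. Because the samples are bulk tissue, fewer cells in S phase and less of each RNA per cell cannot be told apart.

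E2F factors are known to control many of these genes through sites near their start, so the promoters were searched for the letters TTTCCCGC, TTTGGCGC, TTTCGCGC and TTTGCCGC on both strands. The windows ran from 250 bases before to 50 bases after each start (RefSeq, build GRCr8). Of the 42 genes, 37 were matched to a window, and Orc1, Mcm4, Gins4, Ccne2 and E2f1 were not. At least 1 match lay in the windows of 17 of the 37 genes (45.9%), and in those of 439 of the 11733 tested genes with a window (3.74%). The windows of Mcm2, Mcm3, Mcm5, Mcm6 and Mcm7 each held at least 1, as did those of Gins1 and Tyms. They are printed here because the helicase ring is the best covered complex of the set and Gins1 and Tyms were among its larger differences. The windows of Ccne1 (-1.22), Orc6 (-1.06) and Rfc2 (-0.97), also among the larger log2 differences, held no match. Each stretch is 150 bases long and ends 2 bases after the start, written 5′ to 3′ along the gene, with the matched letters in capitals. Further matches in the windows of Mcm3, Mcm5 and Mcm7 lay outside the printed stretches.
Mcm2 (chr4:122918093-122918242, minus strand): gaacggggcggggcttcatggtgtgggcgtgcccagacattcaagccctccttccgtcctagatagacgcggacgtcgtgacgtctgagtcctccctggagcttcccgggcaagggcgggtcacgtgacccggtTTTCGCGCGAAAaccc
Mcm3 (chr9:30733745-30733894, minus strand): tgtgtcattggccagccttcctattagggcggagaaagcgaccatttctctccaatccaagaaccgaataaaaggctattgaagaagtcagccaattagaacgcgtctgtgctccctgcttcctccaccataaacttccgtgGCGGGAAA
Mcm5 (chr19:13488665-13488814, plus strand): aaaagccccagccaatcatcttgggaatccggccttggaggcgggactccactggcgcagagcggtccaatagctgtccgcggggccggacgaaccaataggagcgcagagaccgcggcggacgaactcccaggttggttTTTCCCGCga
Mcm6 (chr13:42404351-42404500, minus strand): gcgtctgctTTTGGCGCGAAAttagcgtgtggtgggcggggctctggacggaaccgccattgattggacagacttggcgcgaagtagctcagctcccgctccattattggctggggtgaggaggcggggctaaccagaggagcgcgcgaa
Mcm7 (chr12:22163177-22163326, minus strand): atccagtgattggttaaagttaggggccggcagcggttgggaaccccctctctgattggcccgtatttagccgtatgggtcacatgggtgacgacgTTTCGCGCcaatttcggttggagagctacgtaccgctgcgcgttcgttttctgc
Gins1 (chr3:160184772-160184921, plus strand): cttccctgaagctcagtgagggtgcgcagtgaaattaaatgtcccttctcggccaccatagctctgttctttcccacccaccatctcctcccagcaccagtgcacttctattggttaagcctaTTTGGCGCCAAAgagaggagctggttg
Tyms (chr9:120776082-120776231, minus strand): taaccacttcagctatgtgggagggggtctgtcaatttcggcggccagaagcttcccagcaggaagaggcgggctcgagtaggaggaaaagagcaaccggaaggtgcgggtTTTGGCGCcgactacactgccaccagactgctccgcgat
In Mcm2, Mcm6 and Gins1 the capitals hold 2 matches that overlap, 1 on each strand. Over all 27 matches in the set, 8 overlapped another such match, 1 overlapped a CCAAT box and 1 a GC box. The CCAAT box (CCAAT) was found in 22 of the 37 genes (59.5%) and in 38.6% of all tested genes with a window, and the GC box (GGGCGG) in 25 (67.6%) and 58.6%. A match describes the letters alone, as no binding was measured.

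The set was lower in the skull, by a moderate amount and throughout. On the log2 scale the differences, skull minus limb, ran from -1.28 to -0.18, with a median of -0.69 against -0.02 over all 14217 genes, and all 42 were below 0. Expressed as a share of the limb level, the skull level was between 41.1% and 88.1%, with a median of 62.1%. By limma with Benjamini-Hochberg adjustment over all genes, 38 of the 42 fell in the skull at an adjusted p below 0.05 and none rose, also at an unadjusted p below 0.05 (0 of 42). The same threshold was passed toward lower skull values by 18.1% of all genes and toward higher ones by 14.2%. Every skull array lay below every limb array for 39 of the 42, and for 16.4% of all genes. A fall of at least 2-fold as well was reached by 5 genes (Orc1, Ccne1, Tyms, Ccne2 and Orc6), against 4.47% of all genes, and no gene of the set rose 2-fold (3.59% of all genes). Gins1 (-0.99), Rfc2 (-0.97) and Rfc5 (-0.93) lay just short of the 2-fold threshold. No 95% interval lay wholly beyond 2-fold. The count of 5 was 3 without calvaria 4, where Orc6 and Ccne2 dropped out, and 2 when the floor was replaced by log2(signal + 16). No signal of the set was at the floor of 2.51, the lowest being 22.5, against at most 8.40 for the bacterial trpn control probe sets.

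**Figure D1:**
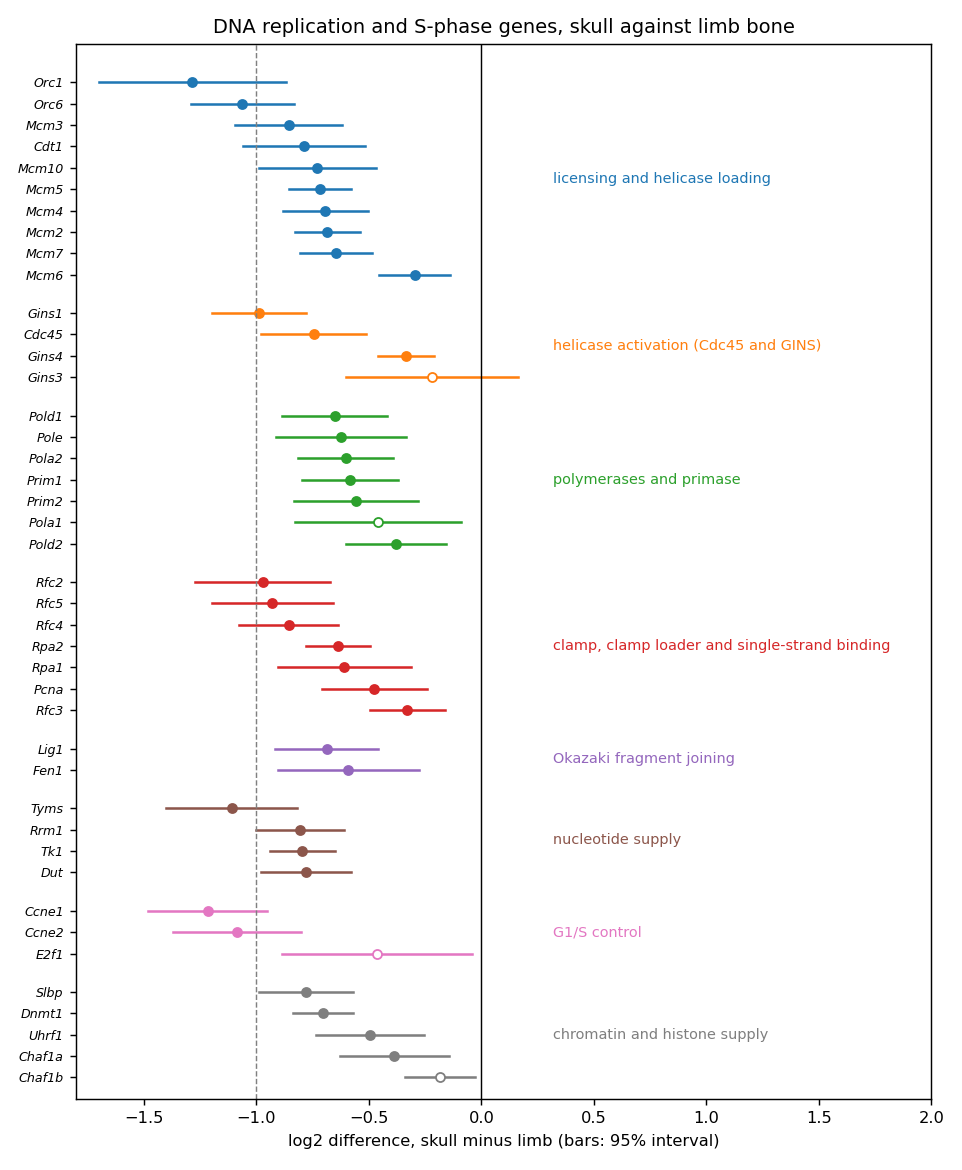
Log2 difference, skull minus limb, of the 42 measured genes (horizontal axis), grouped by role, with bars for the 95% interval of limma, filled points for an adjusted p below 0.05 and a dashed line at the 2-fold threshold. Every point lies left of 0, and Orc1, Ccne1, Tyms, Ccne2 and Orc6 lie beyond the dashed line.

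Genes of origin licensing and helicase loading fell together, with all 10 measured past the test and no overlap between the sites. Orc1, the ATPase of the origin recognition complex, had the lowest share of the limb level in the set. Its signals were 36.3, 29.1, 23.4 and 22.5 on calvaria 1 to 4 and 51.5, 80.0, 66.3, 64.0 and 74.3 on ulna 1 to 5. The skull arrays all lay below the limb arrays, by a log2 difference of -1.28 ± 0.18 (SE, n = 4 and 5, adjusted p = 0.000727). Orc6, another subunit of that complex, had signals of 110.5, 102.6, 123.6 and 88.0 in the skull and 205, 208, 215, 231 and 245 in the limb. It fell by 1.06 ± 0.10 on the log2 scale, and its further 2 probe sets differed by -1.04 and -1.30. Cdt1, which brings the helicase to the origin, fell by 0.79 ± 0.12 and Mcm10, which acts when the helicase starts, by 0.73 ± 0.11.

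Within the Mcm2-7 ring, 5 of the 6 subunits had log2 differences between -0.86 and -0.65, and Mcm6 stood at -0.30. Mcm5 gave signals of 266, 281, 233 and 248 in the skull and 417, 400.3, 434, 415 and 440.4 in the limb (-0.72 ± 0.06, adjusted p = 5.4e-05). Mcm2 gave 424, 376, 381 and 372 in the skull and 593, 686, 650.4, 595 and 599.8 in the limb (-0.69 ± 0.06). Both subunits were narrowly spread within a site, and the gap between the sites exceeded the whole range of either. Mcm7, the brightest of the ring, gave 935, 880.1, 839 and 784 in the skull and 1357, 1272, 1378, 1245 and 1467 in the limb (-0.65 ± 0.07). Mcm6 gave 383, 384, 325 and 391 in the skull and 435, 451, 489, 423 and 477 in the limb, a fall of 0.30 ± 0.07 (adjusted p = 0.0107). Its 95% interval of -0.46 to -0.14 did not meet those of Mcm2, Mcm3, Mcm4, Mcm5 or Mcm7, the nearest of which ended at -0.48. The difference between subunits was not itself tested. Mcm6 was measured with 1 probe set, of a type that can bind several transcripts of 1 gene. With the signals as deposited or with quantile normalisation, Mcm6 did not pass the test.

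The factors that switch the helicase on were uneven. Gins1 and Cdc45 fell clearly, Gins4 fell less, and Gins3 did not pass the test. Gins1, a GINS subunit, gave 98.3, 79.9, 87.3 and 89.0 in the skull and 171, 151, 201, 174 and 183 in the limb (-0.99 ± 0.09, adjusted p = 7.7e-05). Cdc45, which joins GINS and the Mcm ring in the active helicase, gave 301, 266, 218 and 249.9 in the skull and 429, 383, 466, 401.2 and 483 in the limb (-0.75 ± 0.10). No skull array reached a limb array for either gene. The probe set used for Cdc45 is of a type that can share sequence with other genes. Of its 3 further probe sets, 2 passed the test at -0.83 and -0.69, and the third, dim at both sites with mean signals of 4.46 and 5.54, did not. Gins4 differed by -0.34 ± 0.05. Gins3 overlapped between the sites, with 114.9, 116.0, 66.2 and 82.0 in the skull against 109.5, 108.3, 103.8, 96.6 and 120.1 in the limb. Its difference of -0.22 had a 95% interval of -0.60 to 0.16, which is wide enough to hold the difference of Gins4 but not that of Gins1. The differences between these subunits were not tested.

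Polymerases and primase lay close together, 6 of 7 passing the test, with differences from -0.65 to -0.38. Pola2, the accessory subunit of polymerase alpha, gave 108.3, 114.5, 89.0 and 100.6 in the skull and 145, 162, 175, 160.3 and 139.6 in the limb (-0.60 ± 0.09, adjusted p = 0.00114). Pold1, the catalytic subunit of polymerase delta, gave 239, 239.8, 205 and 187 in the skull and 298, 331, 393, 322 and 366 in the limb (-0.65 ± 0.10). Prim1, the catalytic subunit of primase, gave 493, 465, 479 and 389 in the skull and 691, 587, 736, 654 and 753 in the limb (-0.58 ± 0.09). The sites were apart for each of these 3 genes. Pole, the catalytic subunit of polymerase epsilon, fell by 0.62 ± 0.13, Prim2 of primase by 0.56 ± 0.12, and Pold2 of polymerase delta by 0.38 ± 0.10. Pola1, the catalytic subunit of polymerase alpha, missed the test (-0.46 ± 0.16, adjusted p = 0.0600), with skull signals spread from 64.2 to 113.2 below limb signals of 115.0 to 142.3.

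The sliding clamp, its loader and the single-strand binding proteins all fell, 7 of 7. Pcna, the clamp, gave 1926, 1912, 1894 and 1515 in the skull and 2643, 2459, 2800.3, 2162 and 2512 in the limb (-0.48 ± 0.10, adjusted p = 0.00699). Calvaria 4 stood below the other skull arrays for Pcna. Among the loader subunits, Rfc2 stood at -0.97 ± 0.13, Rfc5 at -0.93 ± 0.12 and Rfc3 at -0.33 ± 0.07. Rfc4 gave 303, 260.2, 276 and 233 in the skull and 529, 443, 552, 444 and 457 in the limb (-0.86 ± 0.10). Rpa2, a subunit of the single-strand binding complex, was even within each site, at 230.2, 209, 193 and 185 in the skull and 315, 319.6, 322, 311 and 317 in the limb (-0.64 ± 0.06). Rpa1, its large subunit, fell by 0.61 ± 0.13. The intervals of Rfc3 and of Rfc2, Rfc4 and Rfc5 did not meet, but the difference between subunits was not tested.

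The enzymes that process Okazaki fragments on the lagging strand both fell. Lig1, the DNA ligase that seals them, gave 213, 206, 186 and 243 in the skull and 314, 328, 390.4, 302 and 375 in the limb (-0.69 ± 0.10, adjusted p = 0.000825). Fen1, the flap nuclease that trims them, gave 154, 171, 134 and 164 in the skull and 244, 195, 237, 199 and 308 in the limb (-0.59 ± 0.14). The limb arrays were above every skull array for both, and ulna 5 was the highest for Fen1. A further probe set of Lig1 fell by only 0.32 ± 0.08, with mean signals of 117 in the skull and 146 in the limb.

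All 4 measured enzymes of nucleotide supply fell, by 0.78 to 1.11 on the log2 scale. Tyms, thymidylate synthase, gave 89.2, 97.4, 62.9 and 72.9 in the skull and 178, 149.96, 174, 172 and 187 in the limb (-1.11 ± 0.13, adjusted p = 0.000244). Tk1, the thymidine kinase of dividing cells, gave 404, 429, 347 and 395 in the skull and 698, 674, 683, 650.3 and 701 in the limb (-0.80 ± 0.06, adjusted p = 3.9e-05). Its adjusted p was the smallest of the set, and its further 2 probe sets fell by 1.17 and 0.68. Rrm1, the large subunit of ribonucleotide reductase, gave 496, 491, 412 and 381 in the skull and 826, 755, 743, 749 and 799.9 in the limb (-0.81 ± 0.09). Dut, which clears dUTP, gave 1565, 1549.6, 1369.6 and 1267 in the skull and 2435, 2426, 2699, 2207 and 2539 in the limb (-0.78 ± 0.09). No skull array reached a limb array for these enzymes. Without calvaria 3, Tyms no longer reached 2-fold.

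Both E cyclins fell more than 2-fold, whereas E2f1 did not pass the test. Ccne1 gave 204, 165, 171 and 228 in the skull and 387, 461, 485, 397 and 495 in the limb (-1.22 ± 0.12, adjusted p = 9.2e-05). Ccne2 gave 295, 256, 251 and 191 in the skull and 586, 475, 562, 467 and 525 in the limb (-1.09 ± 0.13). Every limb array was above every skull array for both cyclins, which bind the kinase that starts S phase. A further, dimmer probe set of Ccne2 did not differ by the test (-0.03 ± 0.23, mean signals 30.4 and 30.6), and with the mean of its probe sets Ccne2 no longer reached 2-fold. E2f1 gave 80.5, 84.4, 44.5 and 77.2 in the skull and 105.0, 81.7, 97.9, 94.9 and 101.4 in the limb, so that calvaria 2 lay above ulna 2 (-0.46 ± 0.19, adjusted p = 0.0909).

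**Figure D2:**
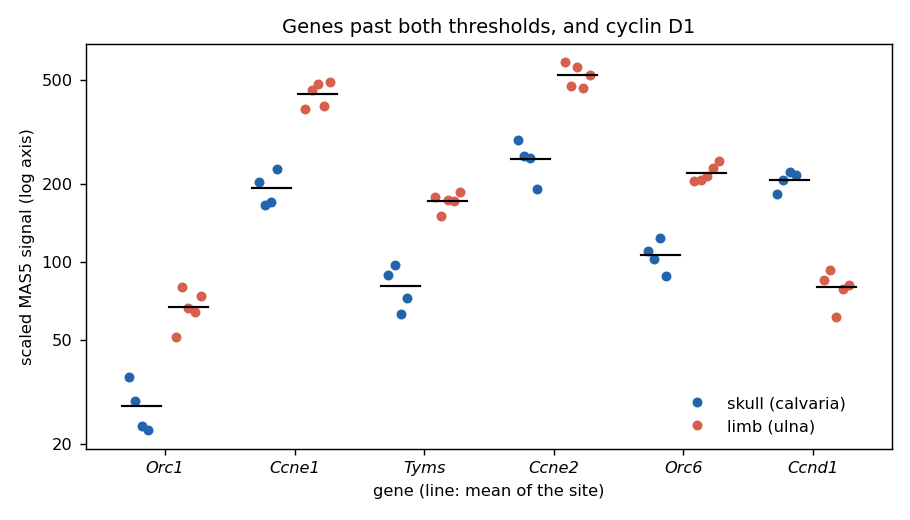
Scaled MAS5 signal (log axis) on each array for the 5 genes that fell at least 2-fold and for cyclin D1 (Ccnd1), with skull arrays in blue, limb arrays in red and a line at the mean of each site. The skull arrays lie below all limb arrays for Orc1, Ccne1, Tyms, Ccne2 and Orc6, and above them for Ccnd1.

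Of the genes that rebuild chromatin behind the fork, 4 of 5 fell. Dnmt1, the maintenance DNA methyltransferase, gave 439, 368, 364 and 394 in the skull and 633, 642, 637, 638 and 628 in the limb (-0.70 ± 0.06, adjusted p = 4.7e-05). Its limb signals were nearly level across the 5 arrays. Slbp, which binds the stem-loop of histone mRNA, gave 199, 170.1, 179 and 142 in the skull and 269, 308, 299, 294 and 301 in the limb (-0.78 ± 0.09). The probe set of Slbp is of a type that can share sequence with other genes. Its further 2 probe sets were dim (mean signals of 1.74 to 24.2) and pointed in opposite directions, at 0.83 ± 0.48 and -1.79 ± 0.38, and with the mean of its probe sets Slbp did not pass the test. Uhrf1, which guides Dnmt1 to newly copied DNA, fell by 0.49 ± 0.11. The histone chaperone subunits of chromatin assembly factor 1 had the smallest differences of this group, with Chaf1a at -0.39 ± 0.11 and Chaf1b at -0.18 ± 0.07 (adjusted p = 0.0728), the latter with skull signals of 75.03 to 86.2 and limb signals of 88.8 to 100.3. Over the whole set, 9 genes had 14 further probe sets, of which 13 were below 0 and 11 passed the test (adjusted over all probe sets), all toward lower skull values.

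**Figure D3:**
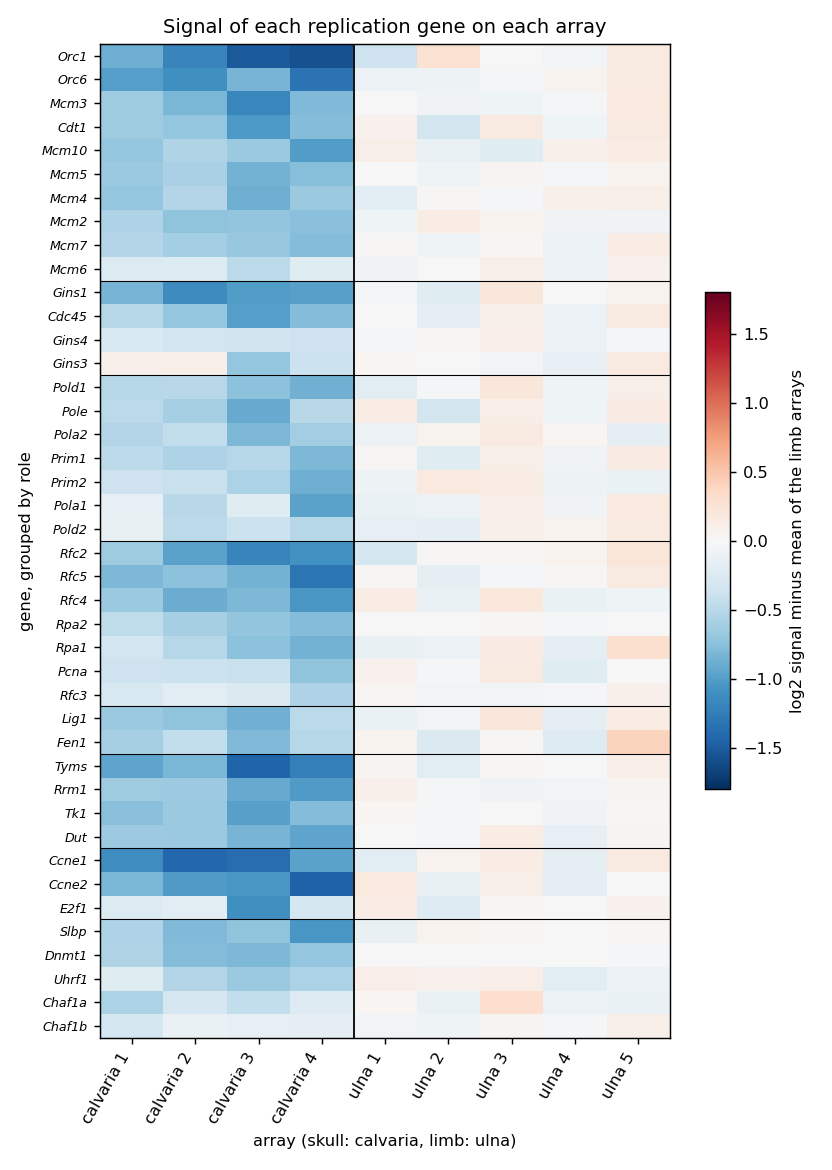
Log2 signal of each of the 42 genes (rows, grouped by role) on each array (columns), shown relative to the mean of the 5 limb arrays, so that blue is lower and red is higher. The 4 skull columns are blue for nearly every gene, and calvaria 3 and 4 are the darkest.

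The level of the set varied among arrays of a site. The mean log2 signal of the 42 genes was 7.84, 7.77, 7.60 and 7.60 on calvaria 1 to 4 and 8.36, 8.32, 8.46, 8.32 and 8.47 on ulna 1 to 5, and the sites did not overlap. Calvaria 4 held the lowest skull signal for 21 of the 42 genes and calvaria 3 for 17, while calvaria 1 held the highest for 24. The log2 ratio of 3′ to 5′ signal, a sign of RNA quality, was 0.28, 0.40, 0.59 and 0.54 for Gapdh and 0.75, 0.84, 1.04 and 1.02 for actin on calvaria 1 to 4. It was thus highest on the skull arrays with the lowest means of the set, and its part in them was not tested. Calvaria 4 also had the highest median of the deposited signals (36.6, against 33.0 to 34.2 on the other 8 arrays) and was scaled down accordingly. In the limb, ulna 5 held the highest signal for 22 genes. The SD was larger in the skull for 34 of the 42 genes (81.0%), and for 56.2% of all genes. On the log2 scale the median SD of the set was 0.17 among skull arrays and 0.14 among limb arrays, against 0.23 and 0.20 over all genes. The median difference was -0.69 for the 17 genes with the E2F letters in the promoter window and -0.69 for the 20 without, and no test was made between them.

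Neighbouring genes of the pathway, taken from named lists, had medians below 0 as well. Of 32 measured further replication factors, 17 fell and none rose by the test (median -0.48), 22 and 1 at an unadjusted p below 0.05, and none reached 2-fold. Of 40 measured S-phase regulators and nucleotide enzymes, 21 fell and 3 rose (median -0.54), and 23 were lower and 6 higher at an unadjusted p below 0.05. E2f8 and Tfdp2 fell and Ccnd1 rose by at least 2-fold. Cdkn2a passed both thresholds upward as well, at signals too near those of the control probe sets to give its size. E2f8, a repressor among the E2F factors, gave 194, 158, 136 and 183 in the skull and 346, 367, 337, 346 and 343 in the limb (-1.06 ± 0.10). Tfdp2, a dimer partner of E2F factors, gave 337, 273, 263 and 306 in the skull and 579, 641, 589.7, 600.5 and 580.3 in the limb (-1.03 ± 0.08). Neither gene overlapped between the sites. Of the 6 E2F genes in that list 4 fell, whereas E2f5 (0.33 ± 0.13, adjusted p = 0.0895) and E2f6 (-0.14 ± 0.09) did not pass the test and overlapped.

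The D cyclins, which act earlier in G1, moved in different directions. Ccnd1 gave 182, 207, 223 and 216 in the skull and 85.3, 93.1, 61.6, 79.0 and 81.7 in the limb, a rise of 1.38 ± 0.12 (adjusted p = 5.7e-05). Every skull array was above every limb array, the reverse of both E cyclins. The E2F genes, D cyclins and inhibitors given beside those past both thresholds were chosen after their values were seen. Ccnd3 fell by 0.61 ± 0.10, and Ccnd2 did not pass the test (0.16 ± 0.05, adjusted p = 0.0501). Of 6 measured cyclin-dependent kinase inhibitors 3 fell and 2 rose. Cdkn2d fell by 0.83 ± 0.08, Cdkn2c by 0.63 ± 0.11 and Cdkn1b (p27) by 0.57 ± 0.10. Cdkn1a (p21) rose by 0.73 ± 0.20, and Cdkn1c did not pass the test (0.31 ± 0.11, adjusted p = 0.0517). Cdkn2a rose by the test at 1.57 ± 0.40, but its skull signals of 5.27 to 14.2 and limb signals of 1.42 to 6.91 were near or below the 8.40 of the control probe sets, so the size is not resolved. Myc was level, at mean signals of 237 and 238 (0.00 ± 0.10).

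Genes of mitosis, which comes later in the cell cycle, fell in the same samples, with 22 of 22 past the test and a median of -0.84. Their mean log2 signal was 7.77 to 8.19 in the skull and 8.71 to 8.91 in the limb. Aurka, a spindle kinase, fell by 1.01 ± 0.10 and Ube2c, which directs cyclin destruction, by 1.04 ± 0.11. Cenpa, the centromeric histone, fell by 1.402 ± 0.42 at low mean signals of 14.95 (skull) and 34.1 (limb). Whether the mitotic and the replication genes differ in the size of their fall was not tested.

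**Figure D4:**
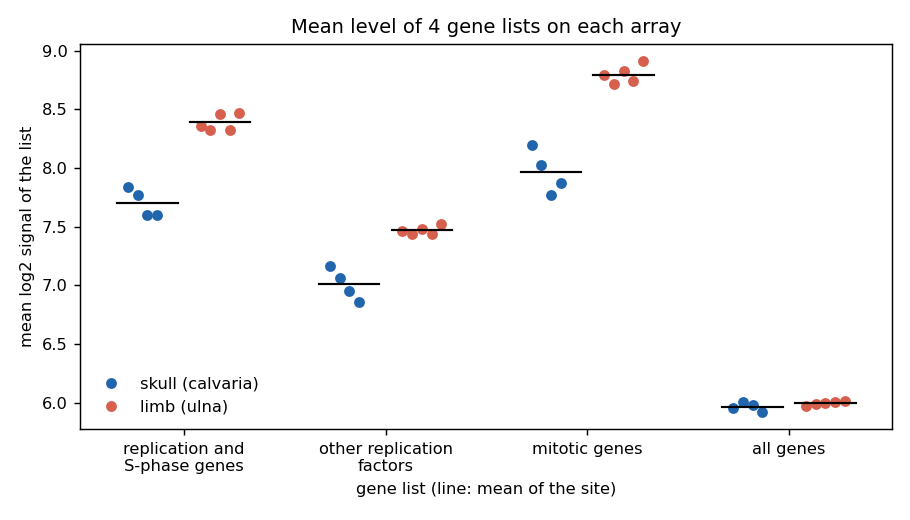
Mean log2 signal per array of the 42 replication and S-phase genes, 32 further replication factors, 22 mitotic genes and all 14217 genes, with skull arrays in blue, limb arrays in red and a line at the site mean. The first 3 lists separate by site, whereas the means over all genes lie between 5.92 and 6.01 on every array.

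Markers of several cell types moved with the set. Of 13 measured erythroid genes, 12 fell (11 of them 2-fold), with a summed signal of 15570 to 16165 in the skull and 23215 to 29902 in the limb. The exception was Hbb, the brightest of the list and part of both sums. It overlapped between the sites and did not pass the test (0.11 ± 0.15, mean signals 6699 and 6271). Of 13 listed neutrophil precursor genes 6 were measured, and all 6 fell (4 of them 2-fold), with sums of 8899 to 11051 and 14398 to 19004. Mpo, Elane, Prtn3 and Ctsg of that list were not among them. S100a8 (mean signals 3040 and 4651) and S100a9 (4819 and 6956) were the brightest in these sums. All 6 megakaryocyte genes fell 2-fold, with sums of 1440 to 2094 and 6043 to 6826. Of 12 listed B lineage genes only 4 were measured. None of these passed the test (2 were lower at an unadjusted p below 0.05), with sums of 2784 to 3616 and 3407 to 4218. Of 8 T lineage genes 1 fell (Cd3g) and 1 rose (Cd4, mean signals 87.2 and 33.3), with sums of 425 to 493 and 449 to 612. Cd3d, Cd3e, Cd8a and Cd2 had mean signals of only 6.28 to 18.8, near those of the trpn controls. All 10 skeletal muscle genes fell 2-fold, with sums of 80.3 to 130.2 and 8072 to 20398, and 4 of them had mean skull signals no higher than the trpn controls. Of 9 osteoblast genes 6 rose, with sums of 33358 to 43175 and 24286 to 33193, and all 6 osteoclast genes rose, with sums of 9824 to 14324 and 3596 to 4433. Of 5 endothelial genes 4 rose (Pecam1, Kdr, Tek and Emcn) and 1 fell, with sums of 1103 to 1181 and 884 to 1075. The gene that fell was Vwf (-1.27 ± 0.11, mean signals 165.8 and 401.4), the brightest of that list in the limb. Of 7 chondrocyte genes, 2 fell (1 of them 2-fold), with sums of 101 to 131 and 166 to 270.3. Acan, the cartilage proteoglycan aggrecan, fell by 1.00 ± 0.24 (mean signals 66.6 and 132.04), and Comp, another cartilage matrix gene, by 1.41 ± 0.28 (16.8 and 45.6), neither with overlap between the sites. The other chondrocyte genes were dim at both sites and did not pass the test. They were Col2a1 (14.9 and 21.4), Col10a1 (9.74 and 13.2), Matn1 (8.11 and 6.46), Cnmd (5.74 and 9.47) and Col9a1 (1.13 and 0.898). Of these, Cnmd was lower at an unadjusted p below 0.05, and Col9a1 lay under the floor on every array. No signal was 0 on any array. The log2 ratio of 3′ to 5′ signal of Gapdh was 0.28 to 0.59 in the skull and 0.21 to 0.37 in the limb, and that of actin 0.75 to 1.04 and 0.57 to 0.86. Calvaria 3 and 4 had the highest ratios of the 9 arrays for both. The part of these cell types and of RNA quality in the lower replication genes was not tested.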

How the data were processed

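Total RNA of skull (calvaria) and limb (ulna) bone was hybridised to Affymetrix rat expression arrays after 1 round of amplification, and samples were grouped by the titles in their labels. The deposited values are intensities, MAS5 signals that the authors made for each array, as the submitters' processing notes name them. The MAS5 version and scaling are not given in the sources used here, and depth has no meaning for arrays, whose number (4 and 5) limits the precision. Per the methods, skull and limb RNA came from groups of rats, and the labels do not tie replicate numbers to those groups. The sites may thus share animals, which the main fit, made without pairing, did not use. Its p-values weigh each difference against the spread between these pooled samples, not between single rats.

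Of 31099 probe sets, 57 controls were left out. A single symbol was given for 20826 of the 31042 tested, several for 436 and none for 9780, and 20758 were matched to RefSeq (GRCr8). Arrays were scaled to a common median, floored at the 10th percentile (2.51) and taken to log2. All probe sets were fitted with limma (version 3.58.1, R 4.3.3; lmFit, eBayes with an intensity trend), two-sided, as skull minus limb. Each gene was represented by its brightest probe set, and p was adjusted (Benjamini-Hochberg) over 14217 genes. A gene rose or fell at an adjusted p below 0.05, and 2-fold means a log2 difference of at least 1 as well. The fit was tested on simulated data. The study normalised per chip and per gene in other software, which was not repeated.

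Signals on every array are given for genes past both thresholds and, in each role, for the 2 smallest adjusted p and the brightest gene. Others were chosen after their values were seen. Genes, lists and letters searched were chosen with earlier results of these data known. Alternatives were other floors, a pseudocount of 16, other scalings, a filter on dim probe sets, no trend, an unmoderated linear model (the form of the test in the methods), mean probe sets, adjustment over all probe sets, the replicate number as a block and leaving out each array. Whether equal replicate numbers mark the same rats is not given. For same-numbered arrays, the correlations of the deviations from the site means were 0.04, -0.01, -0.01 and 0.04. So few values cannot tell whether the arrays were paired.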

Additional observations from a re-analysis of the deposited data

Results flagged for a closer look

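Within 84 sets of skull or limb arrays, 4 signals of the replication genes stood apart from the rest of their site, a test that by chance marks about 1 in 20 sets. They were Mcm3 on ulna 5 (684, the next highest being 602), Mcm6 on calvaria 3 (325, the next lowest being 383), Pcna on calvaria 4 (1515, the next lowest being 1894) and E2f1 on calvaria 3 (44.5, the next lowest being 77.2).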

How the results depend on the processing

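All 42 genes kept their direction under every alternative run. Of 882 comparisons of a single gene with an alternative, 862 stayed on the same side of the adjusted threshold, 12 lost the call and 8 gained it. The number that fell by the test, 38 as reported, was 34 with the replicate block, which leaves out ulna 5 (Mcm6, Pold2, Fen1 and Chaf1a lost the call), and 38 without the block on the same 8 arrays, a setting chosen after seeing the data. It was 36 as deposited or with quantile normalisation, and 37 to 38 with 1 array left out. It was 39 with the floor at the 25th percentile or the unmoderated model (Chaf1b gained the call), and 39 with the pseudocount (Pola1 gained it). Without a floor, or with the filter on dim probe sets, it was 40, and Pola1 and E2f1 gained the call. The number that fell 2-fold was 5 with the replicate block, 2 with log2(signal + 16) (Orc1, Orc6 and Tyms dropped out), 4 with mean probe sets, and 3 to 7 with 1 array left out. The median difference was -0.70 to -0.63 with 1 array left out, -0.60 with quantile normalisation and -0.64 with the pseudocount. No gene of the set rose in any setting. The cause of these changes was not tested. As it is not known whether same-numbered arrays came from the same rats, the calls lost under the block are less secure. Both thresholds rest on 4 and 5 arrays, and low signals are compressed by the pseudocount.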
